A study of Mus musculus with 6 samples.

Results

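Leukocyte integrins were examined in macrophages of epididymal fat from mice on a high-fat diet (HFD) and on normal chow (NCD). The 10 genes were chosen by name: Itgax, Itgam, Itgad, Itgal and Itgb2, the chains of the beta2 (CD18) integrins, and Itga4, Itga6, Itga9, Itgb1 and Itgb7, which form beta1 and beta7 integrins. All 10 were measured, by 1 transcript cluster each (the array's probe set for a gene), out of 30142 genes. Male C57BL/6J mice entered the diets at 6 weeks of age and stayed on them for 16 weeks, until 22 weeks. The HFD had 60% fat. Macrophages were taken from the collagenase-digested stromal vascular fraction by an antibody to the macrophage antigen that Adgre1 encodes and magnetic selection. The 3 HFD samples pooled 10 mice each and the 3 NCD samples 20 mice each, and 100 ng of RNA per pool was labelled for 1 Affymetrix array. A value is thus a mean over the mice of a pool. Arrays are written HFD1 to HFD3 and NCD1 to NCD3, and levels are log2 expression as deposited by the authors.

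An integrin is a pair of 1 alpha and 1 beta chain that spans the membrane and binds matrix or a partner on another cell. On leukocytes, beta2 integrins bind ICAM proteins, fibrinogen and complement-coated particles, and alpha4 and alpha9 integrins bind VCAM-1 and fibronectin or tenascin. The proteins talin and kindlin bind the beta tail and switch the pair into its binding state. CD11c, the product of Itgax, is widely used to mark macrophages that accumulate in obese fat, and it also marks dendritic cells. In bulk samples such as these, fewer cells of a type and less RNA per cell cannot be told apart.

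The pools differed in more than diet. The 8 macrophage markers were all above background, with a list mean of 15.08 to 15.27 on the HFD arrays and 14.40 to 15.07 on the NCD arrays, the lowest on NCD3. At a limma adjusted p below 0.05, Cd68 (1.20, log2 HFD minus NCD) and Fcgr1 (1.43) were higher and Mertk (−0.49) was lower. The other 5 did not pass, among them the selection marker Adgre1 at 0.91 ± 0.27 (limma adjusted p = 0.0924). The part of macrophage content in the integrin changes was not tested. Over all genes r was 0.995 to 0.997 among HFD arrays and 0.985 to 0.994 among NCD arrays. Means of 8 endothelial markers were 12.90, 11.49 and 11.47 on HFD1 to HFD3, against 12.32, 14.37 and 14.81 on NCD1 to NCD3. Those of 5 B and plasma cell markers were 7.94, 8.51 and 8.05 on HFD arrays, against 10.35, 8.76 and 8.34 on NCD arrays, highest on NCD1. Neutrophil markers, 7 genes, had a mean of 10.61 on HFD3, against 7.54 and 7.47 on HFD1 and HFD2 and 8.59 to 9.14 on NCD arrays.

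With all 6 arrays Itgax had the largest difference between the diets of the 10 genes, and its neighbour Itgam was not called. Of the 10 genes, 2 were called higher after HFD (Itgax and Itgad), 0 were called lower and 8 were not called, at an adjusted p below 0.05 from limma with Benjamini-Hochberg adjustment over all genes. Over all 30142 genes 7.83% were called, 4.96% higher (1494) and 2.87% lower (865). Higher genes were thus 63.3% of those called, and they were 78.8% once each array was centred on its median, which moved the median change of all genes to 0.10 and turned the sign of none of the 10. The median change was −0.09 over the 10 genes and 0.01 over all genes (log2 HFD minus NCD, as are all changes below, with the standard error from limma and 3 arrays per diet). HFD and NCD arrays did not overlap in 4 of the 10 genes, Itgax and Itgad above and Itga6 and Itga9 below, and in 30.6% of all genes, 17.6% with HFD above and 13% with HFD below.

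**Figure D1:**
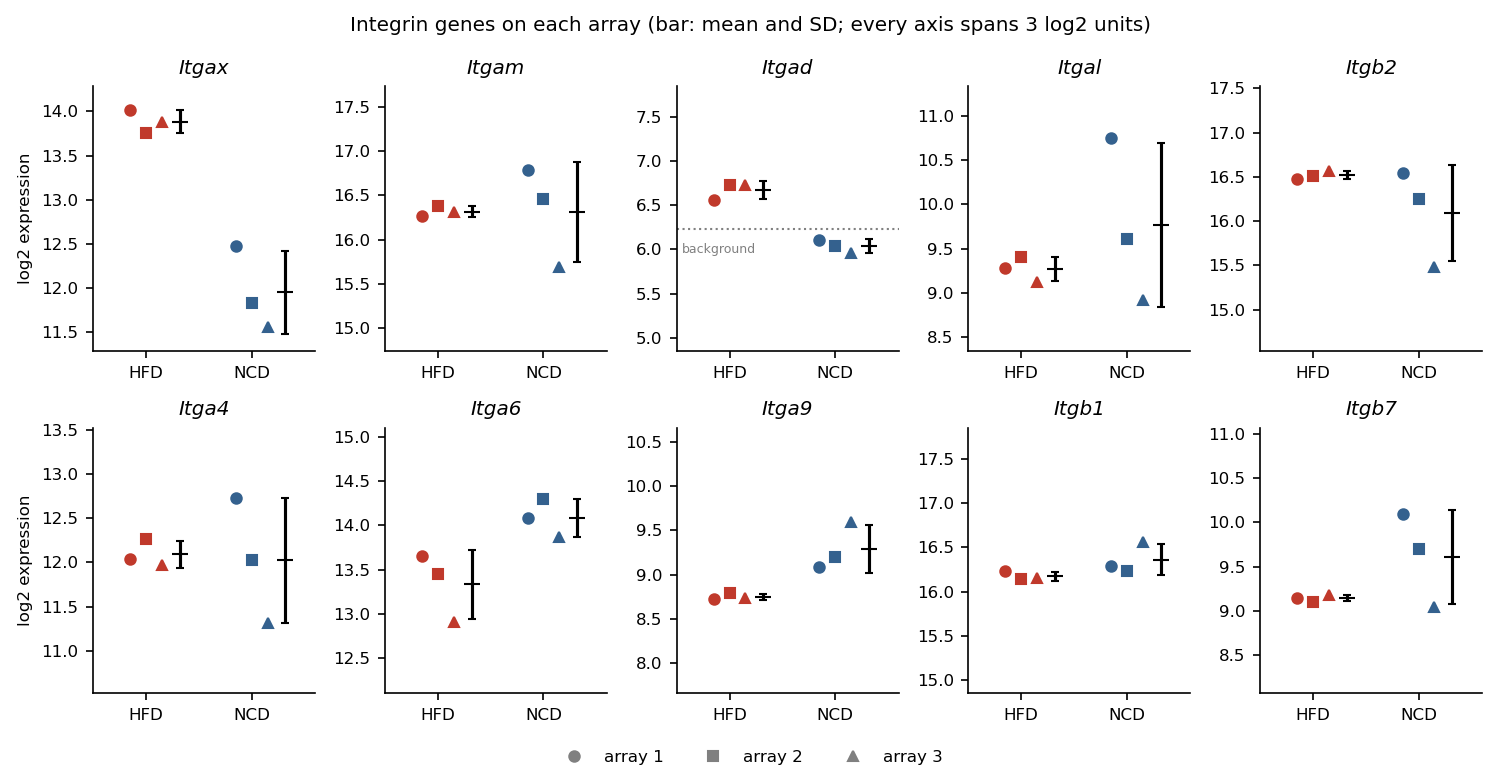
Log2 expression (vertical axis) of the 10 integrin genes on each of the 3 HFD arrays (left of each panel) and 3 NCD arrays (right), with the mean and SD as a bar; the symbol gives the array's number. Itgax and Itgad are higher on every HFD array than on any NCD array, Itga6 and Itga9 are lower, and the NCD arrays lie farther apart than the HFD arrays in 8 of the 10 genes, the exceptions being Itgad and Itga6.

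Itgax encodes the alpha X chain, which with beta2 forms complement receptor 4. Its level was 14.01, 13.75 and 13.88 on HFD1 to HFD3, against 12.48, 11.83 and 11.56 on NCD1 to NCD3. The lowest HFD array thus lay above the highest NCD array, and the NCD arrays were more spread. Means were 13.88 ± 0.13 in HFD and 11.96 ± 0.47 in NCD (SD, n = 3 arrays each), a rise of 1.93 ± 0.24 or 3.80-fold (95% interval 1.36 to 2.49; limma adjusted p = 0.00938). The size held while the call did not: over fits without 1 array the rise was 1.73 to 2.19, and it was not called without HFD3 (1.92, adjusted p = 0.0524) or NCD2 (1.86, adjusted p = 0.0508). With the mean of the endothelial markers as a covariate the rise was 1.52 (adjusted p = 0.0471).

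Itgam encodes the alpha M chain (CD11b), which with beta2 forms complement receptor 3, or Mac-1, the main beta2 integrin of myeloid cells. Its level was 16.26, 16.38 and 16.31 on HFD1 to HFD3, against 16.79, 16.46 and 15.68 on NCD1 to NCD3. The HFD arrays were close together and lay inside the NCD range. The change was 0.01 ± 0.27 (95% interval −0.63 to 0.64; limma adjusted p = 0.993), an interval that leaves out a change of the size of Itgax but holds smaller rises and falls.

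The 2 genes are next to each other among protein-coding genes of chromosome 7 in the RefSeq annotation of GRCm38.p6, Itgam first, then Itgax, then Itgad. Their RefSeq promoters, from 250 bases before to 50 bases after the promoter's start site, are shown because these neighbours differed in their change. For Itgam this site is the gene's first base. For Itgax it is not, as the gene's first base is at 128129526. Capitals mark matches to the AP-1 core TGANTCA and the PU.1 core GAGGAA on either strand (TTCCTC on the minus strand); no matches overlapped. AP-1 joins Fos and Jun proteins, and PU.1 is the master regulator of myeloid cells.
Itgax promoter, chr7:128129300-128129599, + strand: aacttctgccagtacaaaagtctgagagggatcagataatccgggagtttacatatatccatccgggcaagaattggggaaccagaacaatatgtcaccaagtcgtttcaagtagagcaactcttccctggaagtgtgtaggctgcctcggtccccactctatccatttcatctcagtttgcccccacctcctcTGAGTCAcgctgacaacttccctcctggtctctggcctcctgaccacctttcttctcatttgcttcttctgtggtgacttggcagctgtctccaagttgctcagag
Itgam promoter, chr7:128062390-128062689, + strand: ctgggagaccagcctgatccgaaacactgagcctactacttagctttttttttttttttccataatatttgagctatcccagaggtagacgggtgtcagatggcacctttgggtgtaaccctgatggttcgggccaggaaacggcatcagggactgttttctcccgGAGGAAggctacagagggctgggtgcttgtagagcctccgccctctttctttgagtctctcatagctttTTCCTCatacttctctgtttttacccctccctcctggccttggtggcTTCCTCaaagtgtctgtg
The Itgax window held 1 AP-1 match, at bases 195 to 201, and 0 PU.1 matches. The Itgam window held 0 AP-1 and 3 PU.1 matches. Of 32851 promoters of this length, 7.81% held at least 1 AP-1 match and 28.3% at least 1 PU.1 match, so holding a match is not rare. The share that held 3 PU.1 matches was not counted. These matches describe letters only, and binding was not measured. RefSeq promoters were at hand for 6 of the 10 genes.

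Itgad encodes the alpha D chain (CD11d), the third of this trio, which also pairs with beta2. Its level was 6.56, 6.72 and 6.73 on HFD1 to HFD3, against 6.11, 6.04 and 5.96 on NCD1 to NCD3. All 3 HFD arrays lay above their array's background, the 95th percentile of 23 antigenomic probe sets, and all 3 NCD arrays lay below theirs. The fitted rise was 0.63 ± 0.09 (95% interval 0.42 to 0.84; limma adjusted p = 0.0119). Against the background level in NCD, Itgad was at least 1.40-fold higher in HFD. It was not called without HFD2 (0.60, adjusted p = 0.0636), HFD3 (0.60, adjusted p = 0.0604) or NCD2 (0.63, adjusted p = 0.0591), or with the endothelial covariate (0.50, adjusted p = 0.0842). In RefSeq 2 genes of long noncoding RNA lie within the span of Itgad, and whether its probes also read them was not tested.

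The genes beside the trio are given for their position. Of the 3 protein-coding genes on either side, 5 were analysed and 0 were called by limma. As 7.83% of all genes were called, 0 of 5 does not set these neighbours apart. Pycard, the adaptor of inflammasomes, was at 9.05, 9.22 and 9.32 on the HFD arrays, against 9.12, 8.90 and 8.31 on the NCD arrays, a change of 0.42 ± 0.22 (adjusted p = 0.295). Trim72 was below background, as was Cox6a2, a subunit of cytochrome oxidase that adjoins Itgad. Cox6a2 was at 0.28 ± 0.08 (adjusted p = 0.0936), 9130023H24Rik at 0.09 ± 0.17 (adjusted p = 0.807) and Armc5 at 0.15 ± 0.09 (adjusted p = 0.355). Cox6a2 and Armc5 were higher on every HFD array than on any NCD array, as were 17.6% of all genes.

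Itgal encodes the alpha L chain (CD11a), which with beta2 forms LFA-1, the integrin of lymphocytes and other leukocytes that binds ICAM-1. Its level was 9.29, 9.40 and 9.12 on HFD1 to HFD3, against 10.76, 9.61 and 8.92 on NCD1 to NCD3. NCD1 stood above all other arrays and NCD3 below them. The change was −0.49 ± 0.43 (95% interval −1.52 to 0.54; limma adjusted p = 0.558), and it was 0.01 without NCD1 and −0.91 without NCD3.

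Itgb2 encodes the beta2 chain that all 4 of these alpha chains need to reach the surface. Its level was 16.48, 16.51 and 16.57 on HFD1 to HFD3, against 16.54, 16.25 and 15.49 on NCD1 to NCD3. The HFD arrays overlapped with NCD1 alone, and NCD3 was the lowest. The change was 0.43 ± 0.26 (95% interval −0.19 to 1.04; limma adjusted p = 0.375) and stood at 0.12 when NCD3 was left out and at −0.05 with endothelial markers in the fit. On HFD3, the array with the high neutrophil markers, Itgam was between the other HFD arrays, Itgal was the lowest of them and Itgb2 the highest.

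Itga4 encodes the alpha4 chain (CD49d), which with beta1 binds VCAM-1 and fibronectin and with beta7 binds MAdCAM-1. Its level was 12.04, 12.27 and 11.97 on HFD1 to HFD3, against 12.73, 12.03 and 11.31 on NCD1 to NCD3. The NCD arrays lay on both sides of the HFD arrays, and the change was 0.07 ± 0.34 (95% interval −0.74 to 0.87; limma adjusted p = 0.934). Itgb7, the beta7 chain, was at 9.15, 9.11 and 9.18 on HFD1 to HFD3, against 10.10, 9.70 and 9.04 on NCD1 to NCD3. The HFD arrays were nearly level, and NCD1 and NCD2 stood above them. The change was −0.47 ± 0.26 (95% interval −1.08 to 0.15; limma adjusted p = 0.329); without NCD3 Itgb7 was called lower (−0.75, adjusted p = 0.0465).

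Itgal, Itgb7, Itga4 and Itgam shared an order among the chow pools: NCD1 was the highest and NCD3 the lowest of the NCD arrays in each, as in Itgax and Itgb2. The 5 measured B and plasma cell markers were highest on NCD1, where their summed signal was 13.71 (log2), against 11.82 and 11.28 on NCD2 and NCD3 and 11.09 to 11.94 on the HFD arrays. Of these markers 0 of 5 were called by limma, and all 5 had a mean above background. Of 10 measured T and natural killer cell markers 0 were called and 7 had a mean below background, among them Cd3d, Cd3e, Cd4 and Cd8a. Their summed signal was 9.05 to 9.25 on HFD arrays and 9.01 to 9.52 on NCD arrays, highest on NCD1. The mean of the 8 macrophage markers was lowest on NCD3 (14.40). The part of B cells, T cells and macrophage content in these integrin levels was not tested.

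**Figure D2:**
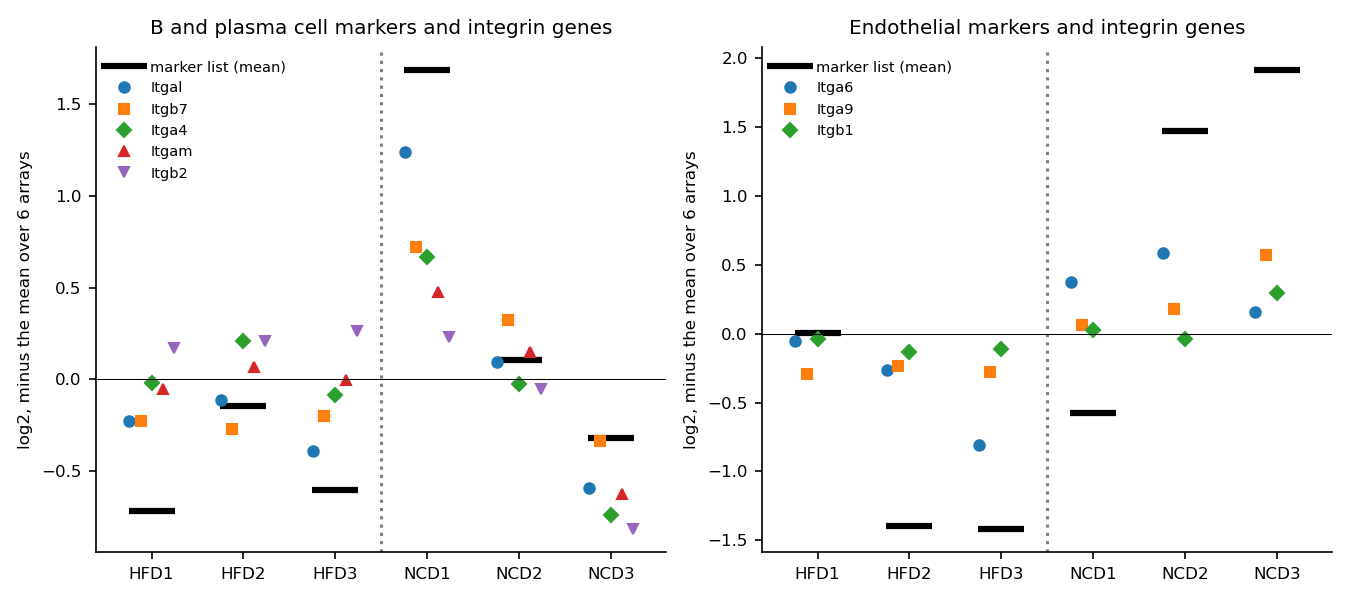
Log2 level minus the mean over the 6 arrays (vertical axis) of the marker lists (bars) and of integrin genes (symbols) on each array, HFD arrays left and NCD arrays right of the dotted line. On NCD1 the B and plasma cell markers stand at 1.69 and Itgal at 1.24; the endothelial markers stand at 1.47 and 1.92 on NCD2 and NCD3 and at −1.40 and −1.42 on HFD2 and HFD3.

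Itga6 encodes the alpha6 chain (CD49f), a laminin receptor with beta1 that endothelial cells also carry. Its level was 13.66, 13.45 and 12.90 on HFD1 to HFD3, against 14.09, 14.30 and 13.87 on NCD1 to NCD3. Every HFD array lay below every NCD array, with HFD3 the lowest. The change was −0.75 ± 0.22 (95% interval −1.27 to −0.23) and did not pass the adjustment over all genes (limma adjusted p = 0.0915).

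Itga9 encodes the alpha9 chain, which with beta1 binds tenascin C and VCAM-1. Its level was 8.73, 8.79 and 8.74 on HFD1 to HFD3, against 9.08, 9.20 and 9.59 on NCD1 to NCD3. The HFD arrays were nearly level and all lay below the NCD arrays, of which NCD3 was the highest. The change was −0.54 ± 0.15 (95% interval −0.90 to −0.18; limma adjusted p = 0.0811), and it was called lower without NCD1 (−0.64, adjusted p = 0.0315).

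Itgb1, the beta1 chain of most tissue cells, was at 16.23, 16.14 and 16.15 on HFD1 to HFD3, against 16.29, 16.23 and 16.56 on NCD1 to NCD3. NCD3 was the highest and the diets overlapped by a small margin, with NCD2 between HFD1 and the other HFD arrays. The change was −0.19 ± 0.11 (95% interval −0.46 to 0.08; limma adjusted p = 0.378).

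The endothelial markers were highest on NCD2 and NCD3, and 8 of 8 had a mean above background. Of these markers 0 of 8 were called by limma, and their mean was higher on HFD1 (12.90) than on NCD1 (12.32). Their summed signal was 15.30 to 16.64 (log2) on HFD arrays and 16.06 to 18.28 on NCD arrays. With the endothelial mean as a covariate the change was −0.61 for Itga6 (adjusted p = 0.426) and −0.34 for Itga9 (adjusted p = 0.464). The part of smooth muscle cells, of whose markers 4 of 7 were called lower in HFD, was not tested.

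CD11c also marks dendritic cells. Of 8 dendritic cell markers 0 were called higher, and Cd209a and Cd24a were called lower. Flt3 and Xcr1 had means below background, Zbtb46 was at −1.20 ± 0.48 (limma adjusted p = 0.187) and Clec9a at 0.42 ± 0.13 (adjusted p = 0.102). The summed signal of the list was 12.20 to 12.70 (log2) on HFD arrays and 13.99 to 14.87 on NCD arrays, most of it from Cd24a, so the sum does not stand for the whole list. The part of dendritic cells in Itgax was not tested. Mast cell progenitors of mice carry alpha4 beta7. Of 6 mast cell markers 4 were called higher in HFD, and Itgb7 was not called. Their summed signal was 9.67 to 10.60 on HFD arrays and 8.92 to 8.97 on NCD arrays.

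Whether 1 chain changed relative to a partner was read from the log2 ratio of the 2 genes within each array, which cancels anything that scales both. Probe sets differ in brightness, so only the shift of a ratio between diets was used, not its level. For 10 pairs an exact two-sided permutation test over the 6 arrays was run, whose smallest possible p is 0.10, so no pair could pass 0.05. Itgax over Itgam was −2.25, −2.63 and −2.43 on HFD1 to HFD3, against −4.31, −4.63 and −4.12 on NCD1 to NCD3, a shift of 1.92 with no overlap (exact p = 0.10, adjusted p = 0.167 over the 10 pairs). The shift of this ratio was close to that of Itgax alone (1.93), and its SD among NCD arrays was 0.26, against 0.47 for Itgax alone. Itgax over Itgb2 shifted by 1.50, also without overlap (exact p = 0.10).

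Itgam over Itgb2 had the smallest SD of the 10 ratios among NCD arrays, though not among HFD arrays. It was −0.22, −0.13 and −0.26 on HFD1 to HFD3, against 0.25, 0.21 and 0.20 on NCD1 to NCD3, a shift of −0.42 with no overlap (exact p = 0.10, adjusted p = 0.167). The SD among NCD arrays was 0.03 for this ratio, against 0.57 for Itgam and 0.54 for Itgb2 alone: both genes varied together among the chow pools. Itgal over Itgb2 shifted by −0.92 without overlap. No shift is given for Itgad over Itgb2, since Itgad was below background on all 3 NCD arrays and the ratio has no measured NCD side.

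Among the beta1 and beta7 pairs, Itga9 over Itgb1 shifted by −0.35 and Itga4 over Itgb7 by 0.53, both without overlap (exact p = 0.10). Itga6 over Itgb1 shifted by −0.56 (exact p = 0.20), Itga4 over Itgb1 by 0.25 (exact p = 0.70) and Itgb7 over Itgb1 by −0.28 (exact p = 0.50), all with overlap. The Itga4 over Itgb1 shift turned to −0.20 without NCD3.

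**Figure D3:**
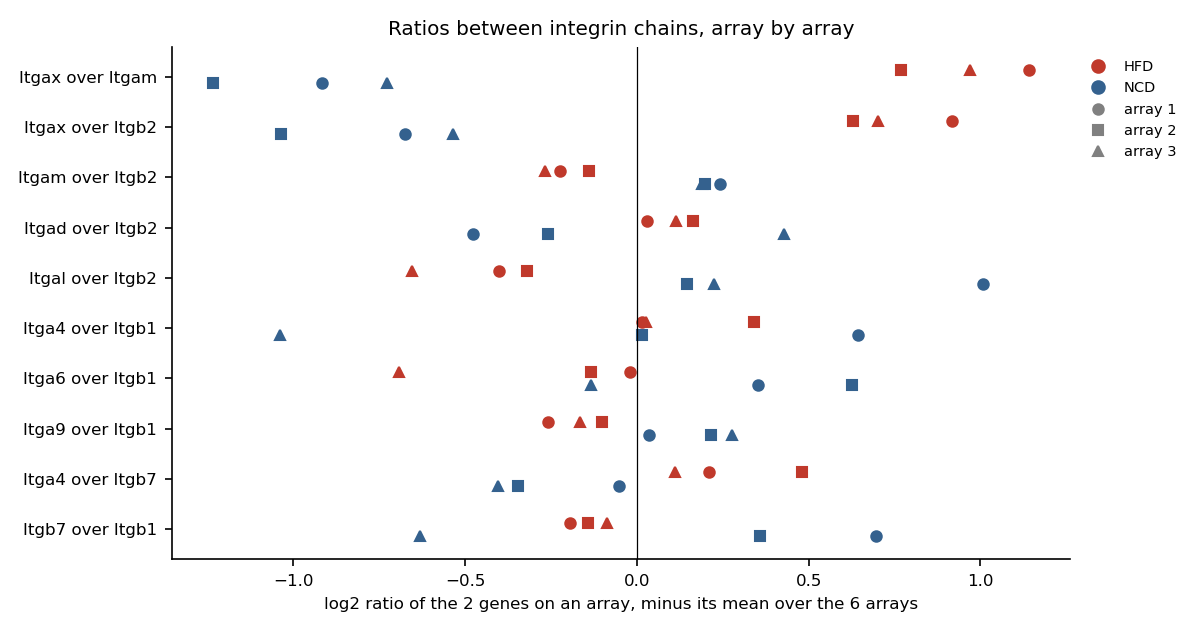
Log2 ratio of 2 integrin genes on each array, minus the mean of that ratio over the 6 arrays (horizontal axis), for 10 pairs (rows), HFD arrays in red above NCD arrays in blue. The diets separate for 6 pairs, most widely for Itgax over Itgam (shift 1.92), and for Itgam over Itgb2 the 3 NCD arrays almost coincide. Pairs share chains, and the share of separated ratios over all gene pairs was not computed, so the count of 6 has nothing to be set against. The NCD points of Itgad over Itgb2 rest on Itgad levels below background.

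The genes with the pattern most like Itgax were taken by Pearson's r over the 6 arrays, among 4157 genes above background that ranged over at least 1 log2 unit. They were Glipr1 (r = 0.998, change 1.98), Pgd, an enzyme of the pentose phosphate pathway (r = 0.996, change 0.92), Commd10 (r = 0.995, change 0.80), Clec12a, an inhibitory lectin receptor of myeloid cells (r = 0.995, change 1.93), and the lysosomal glycoprotein gene Creg1 (r = 0.995, change 0.93). All 5 were higher on every HFD array than on any NCD array, as were 17.6% of all genes. Their choice by likeness to Itgax, which itself separates the diets, favours this. The r values, over arrays that share the diet difference, carry no test. Among the members Itgad had r = 0.960 with Itgax, with 3 of its 6 points, the NCD arrays, below background, and Itgam had r = 0.242.

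Outside the set, the alpha v and beta5 chains were higher. Of 16 other integrin genes 15 were measured: 2 were called higher, 3 lower and 10 were not called. Over all genes 4.96% were called higher and 2.87% lower. The median change of the 15 genes was −0.03, beside 0.01 over all genes. Itgb5, which with alpha v forms a vitronectin receptor used in the uptake of dying cells, was at 12.29, 12.41 and 12.59 on HFD1 to HFD3, against 10.40, 10.71 and 10.67 on NCD1 to NCD3. It rose by 1.84 ± 0.14 or 3.57-fold (limma adjusted p = 0.00264), and it alone of the called genes in the 4 pathway lists was called in all 6 fits that left out 1 array and with endothelial markers in the fit (1.92, adjusted p = 0.0109). Itgav, the alpha v chain, was at 12.99, 13.27 and 13.21 on HFD1 to HFD3, against 12.01, 11.27 and 11.07 on NCD1 to NCD3. It rose by 1.71 ± 0.25 or 3.26-fold (limma adjusted p = 0.0143), at 1.52 to 1.99 without 1 array, but was not called without HFD2, HFD3 or NCD2; with the covariate it was called at 1.11 (adjusted p = 0.0296). Both genes were higher on all 3 HFD arrays.

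The other chains called were lower. Itga8, the alpha8 chain of smooth muscle and mesenchymal cells, fell by 2.06 ± 0.29 or 4.17-fold (limma adjusted p = 0.0128). Its level was 6.70, 6.40 and 6.28 on HFD1 to HFD3, against 8.04, 8.35 and 9.17 on NCD1 to NCD3. The HFD levels were near background and above it on 2 of 3 arrays, so the fold rests on values near the floor. Itgb3, the beta3 chain of platelets and osteoclasts, fell by 0.67 ± 0.11 (limma adjusted p = 0.0176). Itga2, a collagen receptor chain, was below background on all HFD arrays and at least 1.47-fold lower there (limma adjusted p = 0.0112). Without HFD3 or NCD2 none of these 3 was called, at changes of −0.89 to −0.74 for Itga2, −2.30 to −1.74 for Itga8 and −0.75 to −0.58 for Itgb3 over the 6 fits without 1 array; Itga8 and Itgb3 were not called without HFD2 either, nor Itgb3 without HFD1. With the endothelial covariate Itga8 was called (−1.44, adjusted p = 0.0485), and Itga2 (−0.69, adjusted p = 0.0787) and Itgb3 (−0.50, adjusted p = 0.117) were not. Smooth muscle and pericyte markers were lower too, with a summed signal of 11.99 to 13.49 on HFD arrays and 15.36 to 17.29 on NCD arrays, and their part in Itga8 was not tested. Of the 15 genes, 6 had a mean below background.

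**Figure D4:**
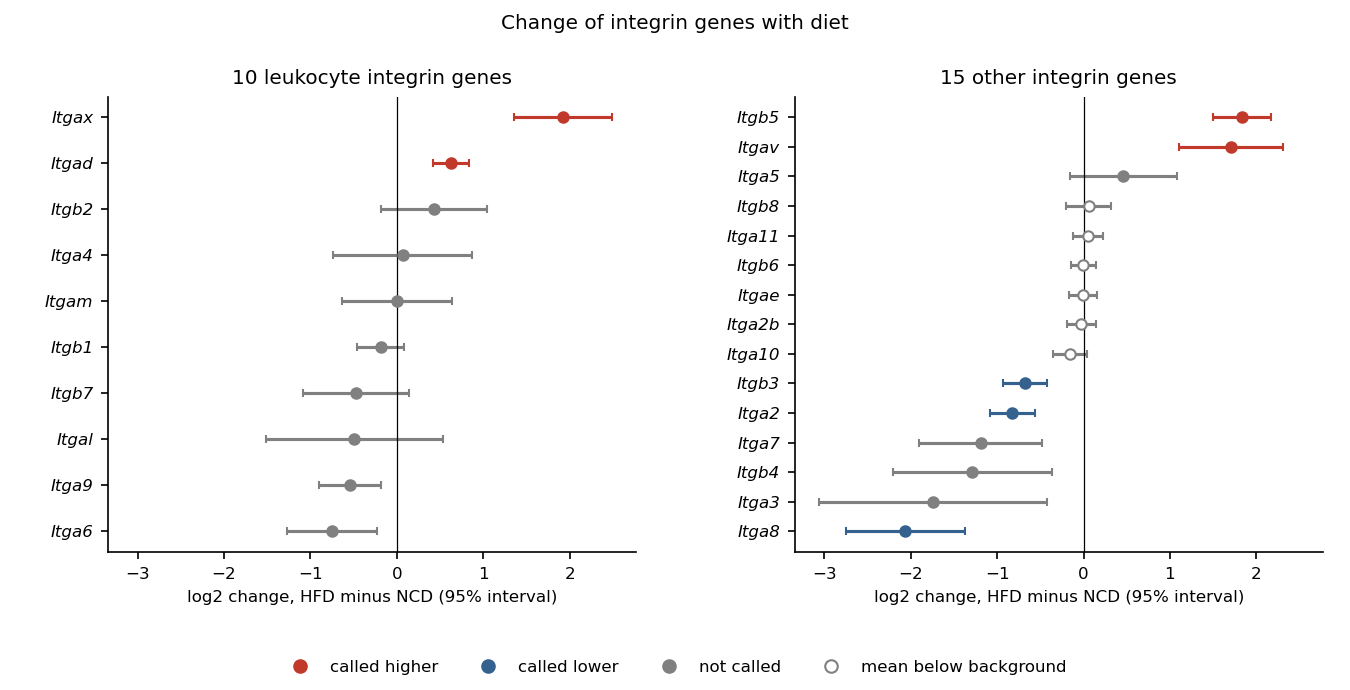
Log2 change, HFD minus NCD (horizontal axis), with its 95% interval from limma for the 10 leukocyte integrin genes (left) and 15 other integrin genes (right); colour gives the call and open circles mark genes with a mean below background. Itgax (1.93), Itgb5 (1.84) and Itgav (1.71) lie farthest to the right and Itga8 (−2.06) farthest to the left.

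Of 19 measured genes that switch integrins on or off, 1 was called higher, 2 lower and 16 were not called, where 7.83% of all genes were called; the median change was 0.00. Dok1, an adaptor that competes with talin for the beta tail, rose by 1.04 ± 0.15 or 2.06-fold (limma adjusted p = 0.0126). Rasgrp2, the exchange factor that activates Rap1, fell by 0.76 ± 0.13 (limma adjusted p = 0.0209), and Cyth1, a beta2 tail-binding exchange factor, fell by 0.75 ± 0.12 (limma adjusted p = 0.0190). None of these 3 was called without HFD2, HFD3 or NCD2, nor Cyth1 without HFD1, at changes of 0.97 to 1.16 for Dok1, −0.83 to −0.67 for Rasgrp2 and −0.80 to −0.66 for Cyth1. With the endothelial covariate Dok1 was called (0.74, adjusted p = 0.0443), and Rasgrp2 (−0.68, adjusted p = 0.131) and Cyth1 (−0.67, adjusted p = 0.113) were not. Tln1, the talin of leukocytes, was at 0.31 ± 0.13 (adjusted p = 0.197), and Fermt3, the kindlin of blood cells, at 0.57 ± 0.35 (adjusted p = 0.392). Their counterparts of other cells, Tln2 and Fermt2, were at −0.86 ± 0.26 (adjusted p = 0.0961) and −2.20 ± 0.60 (adjusted p = 0.0770). Of 18 measured genes of adhesion sites and integrin signalling 0 were called by limma at an adjusted p of 0.05, with a median change of −0.13. Of these 18 genes 7 had an unadjusted limma p below 0.05. Such values were common, as an unadjusted limma p of 0.0491 had rank 7308 among all 30142 genes. The 3 with the smallest adjusted p were Parva, a parvin that binds integrin-linked kinase, at −2.05 ± 0.54 (adjusted p = 0.0710), Ptk2b, the kinase Pyk2, at 1.02 ± 0.27 (adjusted p = 0.0731), and Vav1, an exchange factor of blood cells, at 1.12 ± 0.32 (adjusted p = 0.0874).

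Of 23 measured genes for ligands of leukocyte integrins 3 were called lower, 1 higher and 19 were not called. Over all genes 2.87% were called lower and 4.96% higher. The median change of the ligand genes was −0.69, beside 0.01 over all genes, and 7 of the 23 had a mean below background. Vcam1, the ligand of alpha4 and alpha9 integrins, was at 9.73, 8.85 and 8.97 on HFD1 to HFD3, against 11.17, 11.58 and 12.71 on NCD1 to NCD3. It fell by 2.64 ± 0.43 or 6.23-fold (limma adjusted p = 0.0187). The beta2 ligands Icam1 and Icam2 each fell by 1.20, with standard errors of 0.27 and 0.17 (limma adjusted p = 0.0475 for Icam1 and 0.0122 for Icam2). Lama2, the laminin alpha2 chain, rose by 0.90 ± 0.16 (limma adjusted p = 0.0243). Fn1, the fibronectin gene, was at −0.77 ± 0.20 (adjusted p = 0.0722).

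Markers of other cells of the fat depot and its surroundings were lower beside these ligands. All 6 mesothelial markers were called lower, with a summed signal of 8.48 to 8.69 (log2) on HFD arrays and 10.93 to 11.92 on NCD arrays, and Msln, Krt19 and Wt1 had means below background. Of 6 markers of large peritoneal macrophages, a list that itself holds Icam2 and Fn1, 3 were called lower: Gata6, the factor that defines these cells (−1.24 ± 0.28, adjusted p = 0.0458), Selp (−1.70 ± 0.30, adjusted p = 0.0244) and Icam2. The summed signal of that list was 18.00 to 18.60 on HFD arrays and 18.57 to 19.48 on NCD arrays. The part of both cell types in the ligand and integrin levels was not tested.

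The ligand calls depended on single arrays and on the endothelial covariate, as did calls over all genes. Those went from 2359 to 736 with the covariate, and to between 442 (without HFD2) and 4713 (without NCD1) when 1 array was left out. Icam1 was called in 1 of 6 fits without 1 array, the one without NCD1, at −1.48 to −1.0, and it was not called after median centring. Vcam1 was not called without HFD2, HFD3 or NCD2 (−2.97 to −2.19), Icam2 not without HFD2 or NCD2 (−1.31 to −1.06) and Lama2 not without HFD1, HFD2 or NCD2 (0.76 to 1.06). With the endothelial covariate Vcam1 was at −1.68 (adjusted p = 0.0681), Icam1 at −0.57 (adjusted p = 0.224), Icam2 at −0.90 (adjusted p = 0.0621) and Lama2 at 1.09 (adjusted p = 0.0662). The covariate itself differed between the diets, by −1.88, and its fit has fewer residual degrees of freedom. A call lost in that fit therefore does not measure an endothelial part. Over the 4 lists together 12 of 75 genes were called with all arrays, beside 7.83% of all genes. Of the 75 genes 30 were called without NCD1, 2 without HFD2, 3 without HFD3 and 1 without NCD2. Of all 30142 genes the same fits called 4713, 442, 456 and 474. Fibroblast markers were higher in HFD beside Lama2 (5 of 6 called), and their part was not tested. Their summed signal, 13.17 to 13.94 on HFD arrays and 12.98 to 13.82 on NCD arrays, overlapped, with the matrix proteoglycan gene Dcn the brightest and the 1 not called (−0.88 ± 0.29, adjusted p = 0.126).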

How the data were processed

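The authors deposited log2 expression per transcript cluster, a column for each pool. The submitters' processing notes list Transcriptome Analysis Console 3.1.0.5, Affymetrix Expression Console 1.4.1.46 and RMA. The role of each, its options and a genome build are not stated in the labels. The number of arrays limits the precision.

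Control probe sets, 6732 in number, were left out. Clusters with 1 gene symbol in the platform annotation (30604 of 65956, symbols updated by Entrez identifier) were reduced to the cluster with the highest mean per gene, which left 30142 genes. Diets were compared with limma 3.58.1 (lmFit and eBayes with trend) in R 4.3.3 with the package data.table (1.17.8), two-sided, with Benjamini-Hochberg adjustment over all genes and calls at an adjusted p below 0.05. Background is the 95th percentile of 23 antigenomic probe sets, 6.23 log2 over the arrays. A gene below it on all arrays of a diet has only a lower bound for its fold. The fit was tested on simulated data. Named are all 10 members, the called genes of each pathway list (at most 6), marker genes a result turns on, and the 5 genes most like Itgax. The uncalled genes Tln1, Tln2, Fermt2, Fermt3, Parva, Vav1, Ptk2b and Fn1 were picked by role or value after their values were seen. Alternatives were no trend, median centring, quantile normalization, dropping dim genes, the mean of a gene's clusters, array weights, a replicate block, an endothelial covariate and leaving out each array.

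The members and lists were chosen with earlier results of these data known. Listed genes without a cluster of their own symbol (such as Itga1, Fyb, Ptk2 and C3) were not analysed here. Plots were made in Python 3.11.15 (pandas 2.3.3, matplotlib 3.10.9).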

Additional observations from a re-analysis of the deposited data

How the results depend on the processing

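Of 140 values of the 10 genes under the alternatives, 120 kept their direction and their side of the threshold. Itgax stayed between 1.52 and 2.19 in all 14 alternatives and was called in 11; without 1 array it ran from 1.73 to 2.19. The number of members called higher was 2 in the full fit, 1 with the endothelial covariate and 0 to 2 without 1 array; the number called lower was 0, then 1 (Itga9) with array weights and 0 to 1 without 1 array. Of the 75 genes of the 4 pathway lists 12 were called in the full fit, where 7.83% of all genes were called. The number was 30 with array weights, 4 with the endothelial covariate and 1 to 30 without 1 array. Directions turned only for changes that were not called. Itgam was at −0.037 with array weights and −0.51 with the endothelial covariate, and ran from −0.31 to 0.24 without 1 array, below 0 without HFD2 or NCD3. Itgal ran from −0.91 to 0.0056 without 1 array, above 0 without NCD1, and Itgb2 was at −0.051 with the covariate. Itga4 was at −0.64 with the covariate and ran from −0.29 to 0.42 without 1 array, below 0 without HFD2 or NCD3. The cause was not tested. Of 90 ratio values 89 kept their direction. That count includes 9 values of Itgad over Itgb2, whose direction is not measured because Itgad was below background on the NCD arrays. Itga4 over Itgb1 ran from −0.20 to 0.64 without 1 array. The exact tests of ratios could not pass in any setting.

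The titles number the pools 1 to 3 in both diets. Deviations of same-numbered pools from their diet mean had r = −0.46, −0.12 and −0.15. Deviations within 3 arrays are tied to each other, so these r cannot show whether same-numbered pools shared a batch. With the replicate block 0 members were called, 1 pathway gene, and 144 of all genes; Itgax was at 1.93 (adjusted p = 0.0537). All genes called numbered 2359 in full, 4282 with array weights, 736 with the covariate, and 442 (without HFD2) to 4713 (without NCD1) when 1 array was left out. Higher genes were 63.3% of those called and 78.8% after median centring. Fits without 1 array, with the endothelial covariate or with the replicate block have fewer residual degrees of freedom.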
